A study of Mus musculus with 27 samples.

Results

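The genes followed here were 10 genes of the endoplasmic reticulum (ER) stress response in the liver of 2-week-old mouse pups: Hspa5, Hsp90b1, Xbp1, Atf4, Atf6, Ddit3, Herpud1, Dnajb9, Pdia4 and Creld2. Each gene was read from the probe set that is annotated to it alone and that has the highest mean over all 27 arrays. Of the 10 genes, 8 had such a probe set, among 18820 genes in all. Ddit3 and Pdia4 lie only on probe sets that are listed with a second gene, Mars1 and Mir704, and no value is given for them. All 8 measured genes, as 13279 genes in all, passed the filter on low signal, which asked for a linear intensity of 20 or more on 4 or more arrays.

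C57Bl/6J dams received a Western-style diet (WSD, 45% of the energy as fat and 196.5 mg cholesterol per kg) or a low fat control diet (LFD, 10% of the energy as fat and 18 mg cholesterol per kg). The diets started 6 weeks before mating to males on control diet and went on through gestation and lactation, and the livers of the suckling pups were taken at 2 weeks of age. The 4 groups were 6 sons of WSD dams (m-WS), 6 sons of LFD dams (m-LF), 6 daughters of WSD dams (f-WS) and 9 daughters of LFD dams (f-LF). The pups were exposed to the diet only through their dams, and the labels do not say which pups were littermates, so that p-values measure the spread between pups, which may include pups of 1 litter. Of the sons, m-WS1 and m-LF6 had a log2 signal of 7.92 and 9.30 for Xist, the RNA of the inactive X chromosome, against 3.25 to 4.50 in the other 10 sons and 11.67 to 11.88 in the 15 daughters, and results are also given without these 2 pups.

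The ER folds secreted and membrane proteins, of which the liver makes large amounts. When unfolded proteins accumulate, 3 sensors of the ER membrane start the unfolded protein response: IRE1 splices the mRNA of the transcription factor XBP1, PERK lowers translation while that of the transcription factor ATF4 goes on, and ATF6 is cut by proteases to release its active part. Their joint targets are chaperones such as BiP, which Hspa5 encodes, and genes for the disposal of misfolded proteins. An array reads the amount of mRNA, so neither splicing of Xbp1, nor translation of Atf4, nor cutting of ATF6 was measured here.

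No change of any of the 8 genes was called in sons of WSD dams, while in daughters the mRNA of the ER chaperones Hspa5 and Hsp90b1 was higher, by 1.13-fold and 1.12-fold. The transcription factors of the response, Xbp1, Atf4 and Atf6, did not pass the test in either sex. A change was called at a p of at most 0.01 in limma, the threshold of the study's methods, and no gene of the 8 passed a Benjamini-Hochberg adjusted p of 0.05 over the 13279 genes. In sons, 0 of 8 rose and 0 fell, where 2.79% of all genes tested rose and 2.34% fell. In daughters, 2 of 8 genes rose and 0 fell, where 3.66% rose and 1.48% fell. The count at an unadjusted p under 0.05 was 0 in sons and 3 in daughters, where 13.3% and 14.4% of all genes were under it. The exact permutation test over pups gave a p of at most 0.01 for 0 genes in sons and 2 in daughters. At the adjusted threshold 0.452% of all genes passed in sons and 0.294% in daughters. The median change of the 8 genes was 0.016 in sons and 0.016 in daughters on the log2 scale, against 0.0052 and 0.013 over all genes tested. Of all genes called, 54.4% rose in sons and 71.2% in daughters. These shares depended on the scaling: they were 41.1% and 41.2% with the arrays centred on their medians, and 49.8% and 48.1% with the quantile normalization repeated.

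**Figure D1:**
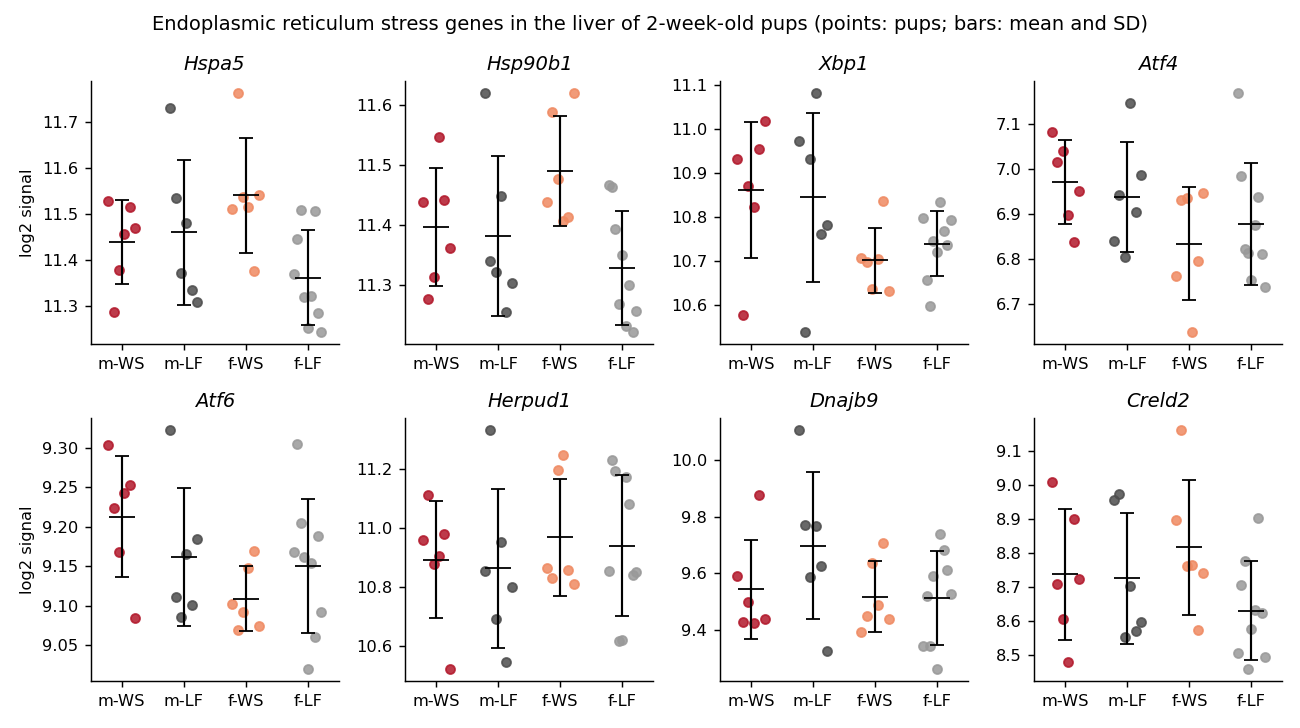
Log2 signal (y axis, 1 panel per gene, each with its own scale) of the 8 genes in each pup of the groups m-WS, m-LF, f-WS and f-LF (x axis); points are pups and bars give the mean and SD. For Hspa5, 5 of 6 f-WS pups lie above the highest f-LF pup at 11.51, while in sons m-WS runs from 11.29 to 11.53 and m-LF from 11.31 to 11.73.

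Hspa5, the main chaperone of the ER lumen and the one that holds the sensors inactive, ranged in f-WS from 11.38 over a median of 11.53 to 11.76, and in f-LF from 11.24 over 11.32 to 11.51 (log2 signal). All 6 f-WS pups lay above the f-LF median and 5 of them above the highest f-LF pup, while 6 of 9 f-LF pups lay below the lowest f-WS pup, so the groups overlapped in their edges. The means were 11.54 ± 0.12 in f-WS and 11.36 ± 0.10 in f-LF (SD, n = 6 and 9). The change was 0.18 (standard error 0.060, 95% interval 0.056 to 0.30, adjusted p = 0.163 in limma), a fold change of 1.13 with an interval of 1.04 to 1.23. The exact permutation test over the pups, 2-sided, gave p = 0.00779, where 0.0002 is the smallest p it can give.

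Hsp90b1 encodes GRP94, the HSP90 of the ER. It ranged in f-WS from 11.41 over a median of 11.46 to 11.62, and in f-LF from 11.22 over 11.30 to 11.47. Again all 6 f-WS pups lay above the f-LF median, but only 3 lay above the highest f-LF pup. The means were 11.49 ± 0.092 in f-WS and 11.33 ± 0.095 in f-LF (SD, n = 6 and 9), a change of 0.16 (standard error 0.053, 95% interval 0.054 to 0.27, adjusted p = 0.157 in limma). The exact permutation test gave p = 0.00759.

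Creld2, an ER-resident protein with disulfide isomerase activity whose gene is a known target of the response, had a change of like size that did not pass. It ranged in f-WS from 8.57 over 8.76 to 9.16 and in f-LF from 8.46 over 8.62 to 8.90, and its groups overlapped more: 1 f-WS pup lay above the highest f-LF pup. The change was 0.19 (standard error 0.088, 95% interval 0.0061 to 0.37, adjusted p = 0.331), and the exact permutation test gave p = 0.0541. Without the 2 f-WS pups of array number 39 it was 0.080, and f-WS2 was the highest pup for both Creld2 and Hspa5.

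**Figure D2:**
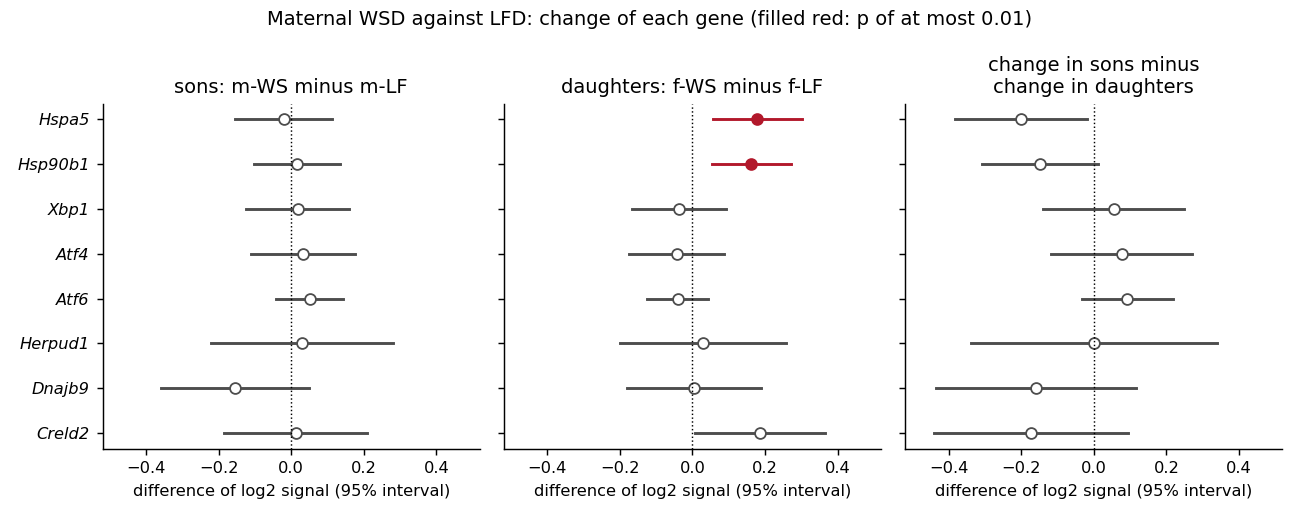
Difference of log2 signal with its 95% interval (x axis) for each of the 8 genes (y axis): m-WS minus m-LF in sons, f-WS minus f-LF in daughters, and the change in sons minus the change in daughters. Filled red points passed a p of 0.01, which only Hspa5 (0.18) and Hsp90b1 (0.16) did, in daughters.

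The calls of both chaperones stood close to the threshold. Hspa5 was no longer called when f-LF5, f-LF8, f-LF9 or f-WS2 was left out, and over all single pups left out its change lay between 0.13 and 0.21 (adjusted p between 0.111 and 0.298). Hsp90b1 was no longer called without f-LF8, f-WS2 or f-WS6, with changes between 0.14 and 0.18 (adjusted p between 0.106 and 0.333). With the arrays centred on their medians the changes were 0.16 and 0.14 and neither was called.

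The ER stress response element (ERSE) is the promoter sequence through which ATF6 and XBP1, with the CCAAT-binding factor NF-Y, are known to switch on chaperone genes. It was searched as CCAAT followed after 9 bases by CCACG, on both strands of the RefSeq promoter windows (assembly GRCm38.p6, 250 bases before to 50 after the start). Only exact matches were sought, so a variant of the element, or one outside the window, was not counted. The exact match is rare: 39 of 32851 windows (0.119%) held it. Of the 10 genes, 9 had a window, and 3 held an ERSE, namely Hspa5, Hsp90b1 with 2 of them, and Creld2, the genes with the largest positive changes in daughters. Herpud1, which had a change near 0, held the related ERSE-II (ATTGG followed after 1 base by CCACG, which shares its second part with the ERSE), found in 12 windows (0.0365%). The 250 bases before the start of these 4 genes are shown on the strand of the gene, with the ERSE or ERSE-II in capitals, because they set the 2 genes that rose beside 2 that were not called.
Hspa5, chr2:34771840-34772089, + strand: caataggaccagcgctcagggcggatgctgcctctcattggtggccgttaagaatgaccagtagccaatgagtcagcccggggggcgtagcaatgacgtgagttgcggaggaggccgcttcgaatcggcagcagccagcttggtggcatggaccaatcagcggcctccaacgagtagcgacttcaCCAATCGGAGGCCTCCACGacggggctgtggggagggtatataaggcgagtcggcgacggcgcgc
Hsp90b1, chr10:86705445-86705694, - strand: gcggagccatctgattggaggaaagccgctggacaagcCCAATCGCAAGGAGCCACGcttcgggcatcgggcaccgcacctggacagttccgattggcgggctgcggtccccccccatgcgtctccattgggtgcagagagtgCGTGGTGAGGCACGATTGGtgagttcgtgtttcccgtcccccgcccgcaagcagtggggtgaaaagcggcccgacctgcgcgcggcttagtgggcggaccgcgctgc
Creld2, chr15:88819396-88819645, + strand: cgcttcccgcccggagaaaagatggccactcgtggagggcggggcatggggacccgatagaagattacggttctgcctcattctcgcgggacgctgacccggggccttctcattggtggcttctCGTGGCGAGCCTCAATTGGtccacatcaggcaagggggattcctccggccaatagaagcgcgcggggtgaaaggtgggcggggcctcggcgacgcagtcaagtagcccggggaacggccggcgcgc
Herpud1, chr8:94386179-94386428, + strand: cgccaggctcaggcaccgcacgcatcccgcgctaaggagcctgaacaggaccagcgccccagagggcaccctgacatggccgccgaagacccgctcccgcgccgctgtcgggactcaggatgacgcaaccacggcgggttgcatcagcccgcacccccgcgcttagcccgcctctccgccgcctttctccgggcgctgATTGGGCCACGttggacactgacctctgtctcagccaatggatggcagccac

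The capitals lie 65 to 47 bases before the start in Hspa5, 212 to 194 and 107 to 89 in Hsp90b1, 126 to 108 in Creld2 and 52 to 42 in Herpud1. The second element of Hsp90b1 and that of Creld2 read on the opposite strand, and no matches overlapped. No window of the 9 held the core of the unfolded protein response element, TGACGTGG (0.676% of all windows), or of the C/EBP-ATF element, TGATG, any base and AAT (0.965%). Beside these members, 14 genes with an ERSE could be tested. In daughters 1 of them rose and 0 fell, and their median change was 0.014 against 0.013 over all genes. In sons 0 rose and 2 fell, with a median of -0.040 against 0.0052, and the count of calls lay between 0 and 2 with single pups left out and was 0 with the array number as a random block. Over all genes 3.66% rose and 1.48% fell in daughters, and 2.79% rose and 2.34% fell in sons.

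In sons, none of these chaperones was called. Hspa5 ranged in m-WS from 11.29 over a median of 11.46 to 11.53, and in m-LF from 11.31 over 11.43 to 11.73. The m-LF range enclosed nearly all of the m-WS range, and its highest pup, m-LF1, was the second highest of all 27. The change was -0.021 (95% interval -0.16 to 0.11, adjusted p = 0.937), and that of Hsp90b1 was 0.015 (95% interval -0.10 to 0.13, adjusted p = 0.955). Hsp90b1 ranged in m-WS from 11.28 over 11.40 to 11.55 and in m-LF from 11.25 over 11.33 to 11.62. Creld2 had a change of 0.013 (95% interval -0.18 to 0.21).

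Whether sons and daughters differed in their response was tested directly, as the change in sons minus that in daughters. For Hspa5 it was -0.20 (95% interval -0.38 to -0.019, adjusted p = 0.461) and for Hsp90b1 -0.15 (95% interval -0.31 to 0.013, adjusted p = 0.549), so neither difference was called. For Creld2 it was -0.17 (adjusted p = 0.694). Of the 8 genes, 0 passed a p of 0.01 for the difference and 1 an unadjusted p under 0.05, where 2.45% and 9.69% of all genes tested did. For none of the 8 genes was the response of sons thus shown to differ from that of daughters.

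None of the 3 transcription factors was called, and the ranges of their groups overlapped in both sexes. Xbp1 lay between 10.58 and 11.02 in m-WS and between 10.54 and 11.08 in m-LF, and between 10.63 and 10.84 in f-WS and between 10.60 and 10.83 in f-LF. Its change was 0.018 in sons (95% interval -0.12 to 0.16) and -0.037 in daughters (-0.17 to 0.093). The spread of Xbp1 was thus wider among sons, on both diets. Atf4 lay between 6.84 and 7.08 in m-WS and between 6.80 and 7.15 in m-LF, and between 6.64 and 6.95 in f-WS and between 6.74 and 7.17 in f-LF. Its change was 0.034 in sons (-0.11 to 0.18) and -0.044 in daughters (-0.17 to 0.087). Atf6 had 0.051 in sons (-0.042 to 0.14, adjusted p = 0.693) and -0.041 in daughters (-0.13 to 0.044). Each factor had a positive value in sons and a negative one in daughters, with all intervals across 0.

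Of the downstream genes, Herpud1, a membrane protein of ER-associated degradation, varied most among pups of 1 group. Its SD lay between 0.20 in m-WS and 0.27 in m-LF, where the median SD of all genes within a group was 0.11 to 0.12. It ranged in m-WS from 10.52 over 10.93 to 11.11 and in m-LF from 10.55 over 10.83 to 11.33, and in f-WS from 10.81 over 10.86 to 11.25 and in f-LF from 10.61 over 10.85 to 11.23. The changes were 0.029 in sons and 0.028 in daughters, with intervals of -0.22 to 0.28 and -0.20 to 0.26, which include a change of the size seen for Hspa5.

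Dnajb9, a J-domain partner of BiP that is known to keep IRE1 inactive, had the most negative value in sons. It ranged in m-WS from 9.42 over 9.47 to 9.88 and in m-LF from 9.32 over 9.70 to 10.11. In m-WS 5 of the 6 pups lay at or below 9.59 and 1, m-WS5, at 9.88, and 5 of 6 m-LF pups lay above the m-WS median. The change was -0.15 (95% interval -0.36 to 0.048, adjusted p = 0.539). With single pups left out it lay between -0.23 and -0.073, and without the pups of number 37 or 50 it was -0.034 and -0.27. In daughters it was 0.0045 (95% interval -0.18 to 0.19).

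Sons and daughters on the same maternal diet were also compared. On maternal WSD, sons minus daughters was 0.16 for Xbp1 (95% interval 0.017 to 0.30) and 0.10 for Atf6 (0.011 to 0.20), both with an unadjusted p under 0.05 and with adjusted p-values of 0.418 and 0.421, and 0 of 8 genes passed a p of 0.01 in limma, where 3.25% of all genes did and 10.3% had an unadjusted p under 0.05. Xbp1 had means of 10.86 ± 0.15 in m-WS and 10.70 ± 0.074 in f-WS (SD, n = 6 each). On maternal LFD the largest difference was 0.18 for Dnajb9, and 0 of 8 genes passed, with 0 at an unadjusted p under 0.05, where 1.34% of all genes passed and 6.8% had such a p. Xbp1 had 1 low son in each diet group, m-WS2 at 10.58 and m-LF2 at 10.54. Without them the differences passed a p of 0.01 but not the adjustment. They were 0.22 on WSD without m-WS2 (adjusted p = 0.327) and 0.17 on LFD without m-LF2 (adjusted p = 0.653). Likewise, Dnajb9 on LFD passed a p of 0.01 without m-LF6 (0.26, adjusted p = 0.406), and Atf6 on WSD without m-WS6 (0.13, adjusted p = 0.297). In each case the pup left out was chosen after its value was seen.

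Each array name contains an undefined number, which is 39, 40 or 48 on WSD and 37, 49 or 50 on LFD, so that every number falls within 1 maternal diet. For Hspa5 the daughters' means by number were 11.64, 11.53 and 11.46 for numbers 39, 40 and 48, and 11.44, 11.35 and 11.26 for numbers 37, 49 and 50. Every WSD number thus lay above every LFD number, although number 48 and number 37 were close. In sons the means were 11.41 and 11.45 for numbers 40 and 48, and 11.63, 11.43 and 11.32 for numbers 37, 49 and 50. Number 37 had the highest mean of the LFD numbers in both sexes, for Hspa5 and for Hsp90b1.

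For Hsp90b1 the daughters' means were 11.51, 11.44 and 11.52 for numbers 39, 40 and 48, and 11.44, 11.29 and 11.24 for numbers 37, 49 and 50. Without the pups of number 37, the changes in daughters were 0.22 for Hspa5 (adjusted p = 0.0431) and 0.22 for Hsp90b1 (adjusted p = 0.0213). Calls rose over all genes in that setting: 248 of 13279 genes had an adjusted p under 0.05 in daughters, against 39 in the main fit. Over all alternatives other than single pups left out, the adjusted p lay between 0.0431 and 0.686 for Hspa5 and between 0.0213 and 0.713 for Hsp90b1. Without the pups of number 39, 40, 49 or 50 Hspa5 was not called (0.13, 0.19, 0.17 and 0.15), and without 39, 48, 49 or 50 Hsp90b1 was not called (0.15, 0.15, 0.13 and 0.14). With the number as a random block both stayed called (0.18 and 0.16). With the arrays of 1 number and sex averaged, the changes were 0.19 and 0.17 and neither was called.

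**Figure D3:**
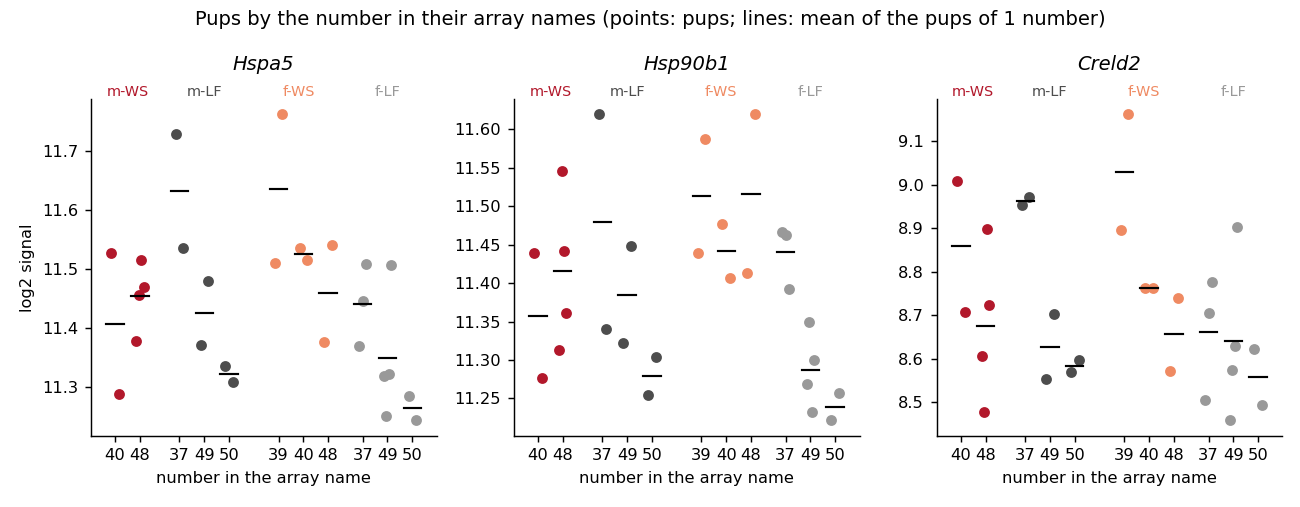
Log2 signal (y axis) of Hspa5, Hsp90b1 and Creld2 in each pup, set out by group and by the number in the array name (x axis); points are pups and lines the mean of the pups of 1 number. For Hspa5 the lines of the f-WS numbers run from 11.46 to 11.64 and those of the f-LF numbers from 11.26 to 11.44.

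The names also begin with 1 of 2 prefixes, G073 or G074, each of which holds pups of all 4 groups. With the prefix as a block the changes in daughters were 0.18 for Hspa5 and 0.16 for Hsp90b1, both called. Within G073 they were 0.16 and 0.12, and within G074 0.24 and 0.24. The values were thus positive in both prefixes, and of the 4 only that of Hsp90b1 within G074 was called.

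Among pups, after the group means were removed, Hspa5 varied with 2 of the other genes. Pearson's r with Hspa5 was 0.79 for Creld2 (Spearman's rho 0.74) and 0.71 for Hsp90b1 (rho 0.74) over the 27 pups, the only 2 of 28 pairs above 0.5. Permutation p-values adjusted over the 28 pairs were 0.00028 and 0.00056 for r, and 0.00084 for rho in both, with 100000 permutations and an unadjusted p for Creld2 of 1e-05, the smallest they can give. Without the 2 pups farthest from the median of Hspa5 r was 0.73 and 0.59. Within the prefixes G073 and G074 r was 0.74 and 0.85 for Creld2 and 0.78 and 0.88 for Hsp90b1, and with the means of each number and sex removed 0.78 and 0.61. Creld2 and Hsp90b1 themselves had r = 0.32. The median r of the 28 pairs was 0.23 and the lowest -0.40, for Xbp1 with Herpud1. These r-values take the pups as independent.

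**Figure D4:**
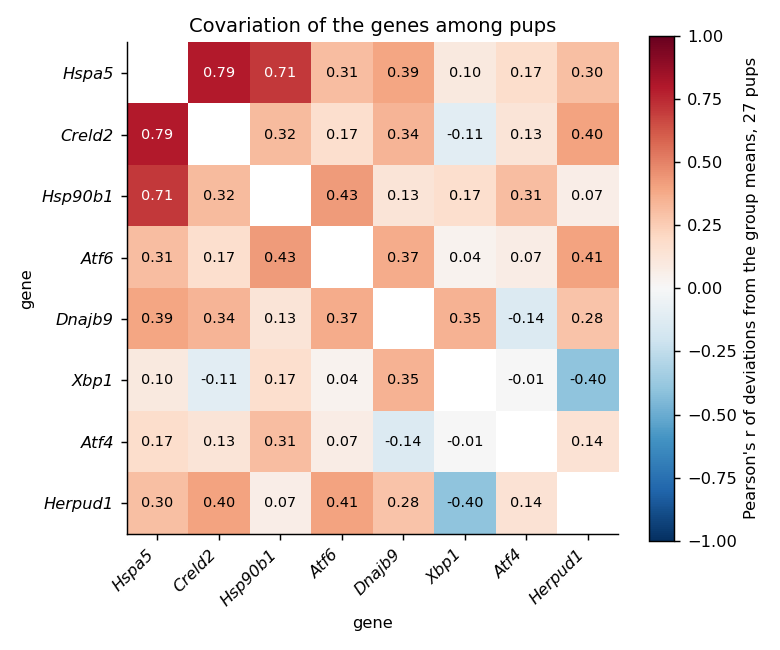
Pearson's r (colour and printed value) between each pair of the 8 genes (both axes), over 27 pups after the group means were removed. Hspa5 stands out with Creld2 (0.79) and Hsp90b1 (0.71), and Xbp1 with Herpud1 is at -0.40.

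The genes of all 13279 that varied most like Hspa5 over the 27 pups were Ibtk (r = 0.84), Adgra3 (0.84), Osbp (0.83), an oxysterol-binding protein, Mrps30 (0.82), a protein of the mitochondrial ribosome, and Ufl1 (0.82), a ligase that attaches the ubiquitin-like protein UFM1. In daughters their changes were positive, from 0.072 for Osbp to 0.13 for Adgra3, and none of the 5 passed. The median r with Hspa5 was 0.54 over 21 other ER chaperones and folding enzymes, 11 of them above 0.5, against 0.04 over all genes. Related lists also lay above 0.04: 0.46 over 11 cytosolic and mitochondrial heat shock genes and 0.43 over 25 genes of ER translocation and export. It was 0.24 over 17 genes of ER-associated degradation, 0.18 over 8 sensors and proteases and -0.089 over 6 cell death genes. For Atf4 the closest genes were Avl9 (0.76), G0s2 (0.69), an inhibitor of triglyceride lipase, Washc1 (0.69), Snora75 (0.68) and Grpel2 (0.65), and the 22 PERK and ATF4 targets had a median r of 0.010 with Hspa5.

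The other genes of the pathway were taken from lists of chaperones, translocation, degradation, sensors, PERK and ATF4 targets, cell death and heat shock genes. Their counts stand against the shares of all genes called, 2.79% up and 2.34% down in sons and 3.66% up and 1.48% down in daughters, and 13.3% in sons and 14.4% in daughters at an unadjusted p under 0.05. Of the 21 other ER chaperones and folding enzymes, 1 fell in sons and 0 passed in daughters, where 4 had an unadjusted p under 0.05, and with single pups left out the count was 0 to 1 in sons and 0 to 2 in daughters. Their median change was -0.046 in sons, with 17 of 21 negative, and 0.047 in daughters, with 15 of 21 positive. Of all 13279 genes tested, 6313 were negative in sons and 7492 positive in daughters. Among the 21, 11 had an r with Hspa5 above 0.5 over the pups, so their signs are not separate observations. The signs of both medians held with the arrays centred on their medians (-0.063 in sons and 0.025 in daughters) and with the quantile normalization repeated (-0.036 and 0.037). On maternal LFD 20 of the 21 were higher in sons than in daughters (median 0.069), and on maternal WSD 7 of 21 were (median -0.021). The gene that fell in sons was Uggt1, which marks misfolded glycoproteins for a further folding round: it ranged in m-WS from 8.95 over 9.07 to 9.22 and in m-LF from 9.09 over 9.25 to 9.48, a change of -0.17 (adjusted p = 0.191). Its call was lost when any of 17 of the 27 pups was left out, and over all 27 the change lay between -0.21 and -0.13.

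Of 25 genes of ER translocation and export, 1 fell in sons, and 1 rose and 1 fell in daughters, and 3 in sons and 10 in daughters had an unadjusted p under 0.05. With single pups left out the count of calls lay between 0 and 1 in sons and between 0 and 4 in daughters, and in daughters it was 5 without the pups of number 37 and 0 with the array number as a random block. Their median was -0.039 in sons, with 22 of 25 negative, and 0.081 in daughters, with 21 of 25 positive. With the arrays centred on their medians, 23 of 25 were negative in sons and 17 positive in daughters. The LFD groups from which these changes were taken differed as well. On maternal LFD 25 of 25 were higher in sons than in daughters, with a median of 0.082 against -0.0067 over all genes. Of these, 3 passed a p of 0.01 in limma, where 1.34% of all genes did. On maternal WSD 6 of 25 were higher in sons, with a median of -0.031. Rpn1 and Dad1 are both subunits of the oligosaccharyltransferase that attaches sugars to new proteins, yet in daughters Rpn1 rose by 0.13 and Dad1 fell by 0.18. Rpn1 ranged in f-WS from 9.60 over 9.67 to 9.76 and in f-LF from 9.42 over 9.59 to 9.66. Dad1 ranged in f-WS from 10.67 over 10.73 to 10.86 and in f-LF from 10.68 over 10.98 to 11.11. Sec13, of the coat of vesicles that leave the ER, had a change of -0.18 in sons. The adjusted p-values of these 3 genes were 0.181, 0.177 and 0.194, and leaving out 1 pup ended the call for 8, 11 and 18 of the 27 pups. With the arrays centred on their medians Rpn1 was not called (0.11), and without the pups of number 48 Sec13 was at -0.11 and not called.

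Of 17 genes of ER-associated degradation, 0 changed in sons and 1 rose in daughters. At an unadjusted p under 0.05 there were 1 in sons and 3 in daughters. The median change was -0.012 in sons and 0.032 in daughters. Derl2, a derlin of the channel through which misfolded proteins leave the ER, ranged in f-WS from 9.23 over 9.43 to 9.57 and in f-LF from 9.0 over 9.22 to 9.41. All 6 f-WS pups lay above the f-LF median, and the change of 0.22 (adjusted p = 0.102) was called whichever single pup was left out. It was not called under 6 of 21 other settings: without the pups of number 48 or 49 (0.15 and 0.18), within the prefixes G073 and G074 (0.20 in both), with the pups of 1 number and sex averaged (0.22) and with the replicate numbers as a block (0.19). Of 8 sensors and proteases, Mbtps1, the site-1 protease that cuts ATF6, rose by 0.10 in daughters (adjusted p = 0.167) and 0 changed in sons, where 0 had an unadjusted p under 0.05. Its call was lost for 7 of the 27 pups left out and under 11 of 20 other settings, median centring (0.083) among them.

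**Figure D5:**
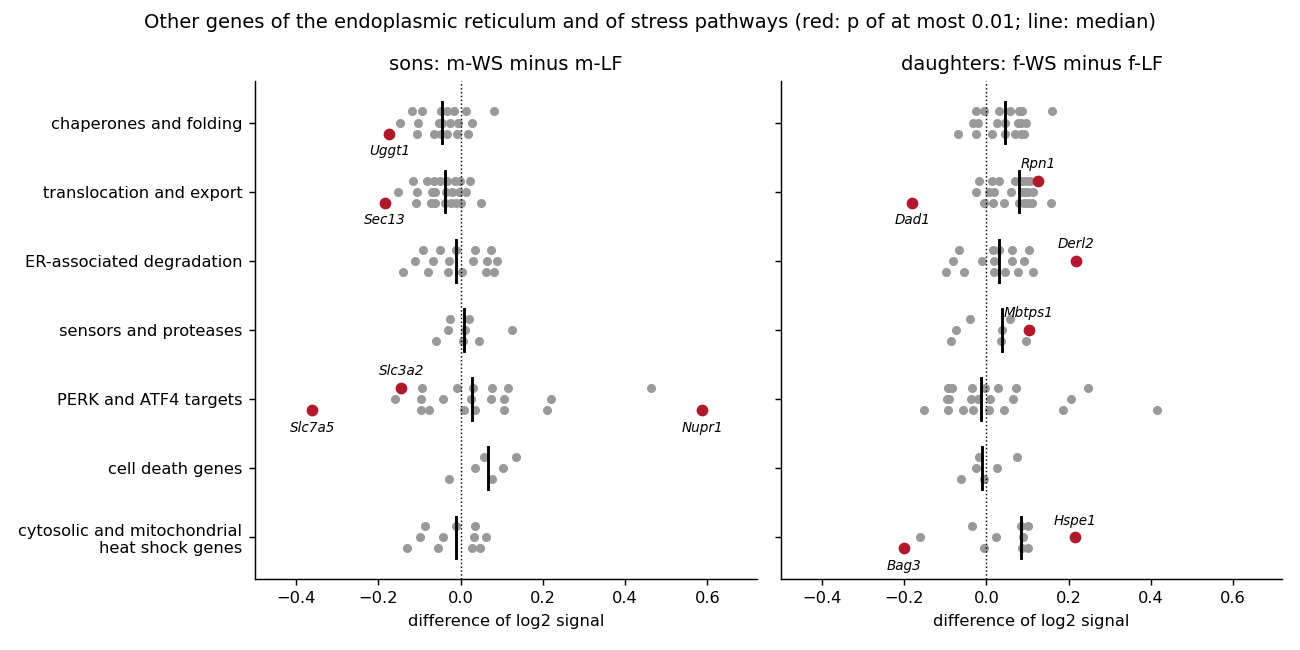
Difference of log2 signal (x axis) of each other gene tested, by list (y axis), for sons (m-WS minus m-LF) and daughters (f-WS minus f-LF); points are genes, red points passed a p of 0.01 and black lines are medians. Translocation genes have medians of -0.039 in sons and 0.081 in daughters, and Slc7a5 and Nupr1 lie at -0.36 and 0.59 in sons.

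The largest called changes of these lists lay among the PERK and ATF4 targets, in sons. Of 22 such genes 1 rose and 2 fell in sons and 0 changed in daughters, where 1 had an unadjusted p under 0.05. The 2 that fell, Slc7a5 and Slc3a2, encode the 2 chains of the LAT1 transporter for large neutral amino acids. Slc7a5 ranged in m-WS from 6.20 over 6.40 to 6.54 and in m-LF from 6.34 over 6.80 to 6.99, a change of -0.36 (standard error 0.093, adjusted p = 0.0698). Slc3a2 ranged in m-WS from 9.93 over 10.02 to 10.18 and in m-LF from 10.10 over 10.16 to 10.34, a change of -0.14 (adjusted p = 0.102). For both genes most m-WS pups lay below most m-LF pups.

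Both calls held whichever single pup was left out, with changes of -0.44 to -0.31 for Slc7a5 and -0.17 to -0.11 for Slc3a2. Without the pups of number 37 or 48, or with the pups of a number averaged, neither was called: for Slc7a5 the changes were -0.28, -0.29 and -0.34 and for Slc3a2 -0.098, -0.071 and -0.13. Within the prefixes G073 and G074, Slc7a5 was at -0.45 and -0.20 and Slc3a2 at -0.11 and -0.20, of which only Slc7a5 within G073 was called. In daughters the changes were -0.035 and -0.057 (adjusted p = 0.895 and 0.530), and the difference between the sexes was not called (adjusted p = 0.412 and 0.644). Without m-WS1 and m-LF6 Slc7a5 in sons was at -0.47 (adjusted p = 0.0078 in limma). In that setting 219 of 13279 genes passed the adjustment in sons, against 60 in the main fit. Over the 21 settings other than single pups left out, the adjusted p of Slc7a5 in sons lay between 0.0078 and 0.999. Nupr1, a stress-induced nuclear protein, rose in sons by 0.59 (adjusted p = 0.179). It ranged in m-WS from 6.29 over 6.75 to 7.80 and in m-LF from 5.92 over 6.23 to 6.65. Without m-WS1 it was 0.39, without the pups of number 40 0.32, and its call was lost when any of 7 of the 27 pups was left out. The median change of the whole list was 0.027 in sons and -0.012 in daughters.

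Of 6 cell death genes 0 passed in either sex, with 0 at an unadjusted p under 0.05, and the smallest p was that of Casp12 in sons (0.13, adjusted p = 0.463). Of 11 cytosolic and mitochondrial heat shock genes, 0 changed in sons, where 0 had an unadjusted p under 0.05, and 1 rose and 1 fell in daughters. In daughters 5 of the 11 had an unadjusted p under 0.05, where 14.4% of all genes did. The median change of this list was -0.012 in sons. It was 0.085 in daughters, with 7 positive and 4 negative, and so above the 0.047 of the ER chaperones. Hspe1, the mitochondrial co-chaperonin HSP10, ranged in f-WS from 10.79 over 10.85 to 11.12 and in f-LF from 10.58 over 10.70 to 10.74. All 6 f-WS pups lay above all 9 f-LF pups, and the change was 0.22 (standard error 0.052, adjusted p = 0.0654). Without the pups of number 48 it was 0.15 and not called, and no single pup ended the call. Bag3, a partner of cytosolic HSP70, fell by 0.20 in daughters (adjusted p = 0.165), a call that was lost when any of 6 of the 27 pups was left out and under 8 of 21 other settings, the prefix G073 alone (-0.11) among them.

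Whole liver holds several cell types, and in such RNA fewer cells of a type and less RNA per cell cannot be told apart. The labelled tissue showed its defining markers: all 8 hepatocyte markers measured lay above the minimum intensity, with Alb highest, and their summed linear signal was 47296.5 to 50805.1 in f-WS and 47336.7 to 50730.6 in f-LF. Of the 8, 0 changed in daughters, with 0 at an unadjusted p under 0.05. Plasma cells, which hold much ER, were checked with 6 markers, of which 2 lay below the minimum. Jchain was lowest and Sdc1 highest, at mean log2 signals of 2.99 and 10.46. Their summed signal was 1419.3 to 1809.5 in f-WS and 1305.3 to 1657.9 in f-LF. This sum rests mainly on Sdc1, so it cannot give the amount of plasma cells. Of 4 plasma cell markers tested 2 rose in sons and 0 changed in daughters, where 1 had an unadjusted p under 0.05. Of 7 acinar markers of the pancreas, 4 lay below the minimum. In daughters, of all markers of the 10 cell type lists only Tfrc of the erythroid list rose (0.18, adjusted p = 0.173). The erythroid list as a whole went the other way there, with 5 of 7 markers negative and a median of -0.099. In sons, 4 of 10 neutrophil, 4 of 6 B cell precursor and 1 of 4 cholangiocyte markers rose. There 2 of 7 liver endothelial and 2 of 8 stellate cell and fibroblast markers fell, where 2.79% of all genes rose and 2.34% fell.

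Over the 27 pups the neutrophil and myeloid precursor markers varied against Hspa5: all 10 had a negative r, from -0.69 to -0.44 with a median of -0.60, where the median over all genes was 0.04. Their summed signal was 773.0 to 1284.8 in m-WS and 396.9 to 1416.9 in m-LF, and 560.3 to 1330.0 in f-WS and 546.4 to 1517.6 in f-LF. In daughters 0 of the 10 changed, with 1 at an unadjusted p under 0.05, and 1 of them, Cxcr2, lay below the minimum intensity on average. Other blood cell lists varied alike: the median r was -0.45 for B cell precursor, -0.40 for plasma cell, -0.39 for erythroid and -0.35 for Kupffer cell markers. It was -0.13 for liver endothelial, -0.045 for stellate cell and -0.041 for acinar markers, 0.11 for cholangiocyte and 0.25 for hepatocyte markers. The part of any of these cells in the values of Hspa5 was not tested. Without m-WS1 and m-LF6, the sons with an Xist signal, again 0 of the 8 genes changed in sons, with Hspa5 at -0.069 and Dnajb9 at -0.24 (adjusted p = 0.721 and 0.250).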

How the data were processed

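Liver RNA of 27 pups had been hybridised to Affymetrix Mouse Gene 1.1 ST arrays, all at 1 time point, 1 array per pup. The deposited values are log2 expression values per probe set, background-corrected, normalized and summarised by the authors with RMA (version not given in the sources used here). Array medians lay between 5.34 and 5.43, and the number of arrays limits the precision. Of 35556 probe sets, 21218 were annotated to 1 gene, 1881 to several and 12457 to none listed, and gene symbols were updated through Entrez IDs for 21185 of the 21218. The single-gene probe set with the highest mean stood for each of 18820 genes. The study's methods redefined the probe sets to 1 per Entrez gene, so the values here rest on other probe sets than the study's own.

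Genes were kept with a linear intensity of 20 or more on 4 or more arrays, as in the study's methods but without their interquartile range filter. The 4 group means were fitted with limma 3.58.1 (R 4.3.3), with an intensity trend in the prior variance, and tested on 13279 genes at p of at most 0.01 with Benjamini-Hochberg adjusted p-values beside it. The fit was tested on simulated data with noise independent between genes and arrays. That test does not cover effects shared between pups or between genes. Exact permutation tests and the r-values with all genes and lists were also computed in R. Promoter searches, permutation p-values of the correlations and figures used Python 3.11.15 and matplotlib 3.10.9. Alternatives were other scalings, filters, array weights, blocks and samples left out. From each list, up to 4 genes with p of at most 0.01 were named, or else the gene of smallest p, and for Hspa5 and Atf4 the 5 closest genes by r. The rule on closest genes also named Ddit3, which had no value. Members and lists were chosen with earlier results of these data known.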

Additional observations from a re-analysis of the deposited data

Results flagged for a closer look

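Single pups that stood apart from their group by Dixon's criterion at the 95% level were found in 5 of 80 groups of 20 named genes, and chance alone gives about 1 in 20. For Xbp1, f-WS5 had 10.84 where the other 5 f-WS pups had 10.63 to 10.71 (log2 signal). Dnajb9 was at 9.88 in m-WS5, against 9.42 to 9.59 in the other 5 m-WS pups, and without that pup the change in sons was -0.22 and not called, in a range of -0.23 to -0.073 over all single pups left out. Rpn1 was at 9.45 in m-WS3, below the 9.57 to 9.62 of the other 5 m-WS pups. Bag3 stood apart in both LFD groups, high in m-LF2 at 7.47, against 6.99 to 7.09 in the other 5, and low in f-LF1 at 6.88, against 7.08 to 7.27 in the other 8.

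For 2 of the 20 named genes the change in sons minus the change in daughters had a p of at most 0.01 in limma, where 2.45% of all genes did. Both genes had been named for a low p in 1 sex, so this is no independent test of a difference between the sexes, and neither passed the adjustment over all genes. Rpn1 had a difference of -0.24 (adjusted p = 0.355), made up of a change of -0.12 in sons (adjusted p = 0.276) and 0.13 in daughters (adjusted p = 0.181). Uggt1 had a difference of -0.24 (adjusted p = 0.395), with -0.17 in sons (adjusted p = 0.191) and 0.070 in daughters (adjusted p = 0.626).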

How the results depend on the processing

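In sons, and for the difference between the sexes, 0 of the 8 genes were called in all alternatives run. The 2 calls in daughters became 0 with the arrays centred on their medians, within the prefix G073, with pups of 1 number and sex averaged, without number 39, 49 or 50, and at an adjusted p of 0.05, and 1 within the prefix G074 and without number 40 or 48. With single pups left out the count lay between 0 and 2, and was 0 without f-LF8 or f-WS2. Within G074 the median change of the 8 genes in daughters was 0.085. Between sons and daughters on LFD, 1 gene in place of 0 was called within G073, without number 50 and without m-LF6 and m-WS1, and on WSD 1 in place of 0 with the quantile normalization repeated, with array weights and within G074; single pups left out gave 0 to 1 for both. The alternatives for these comparisons of the sexes and for the other lists were chosen after the data had been seen. The causes were not tested, beyond the smaller number of pups in the subsets.

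The replicate numbers in the sample titles do not pair the pups: same-numbered pups had correlations of -0.25 to 0.26, and 1 of 12 pairs correlated best with its own number. With the replicate block the count of calls in daughters was 0, with Hspa5 at 0.17 and Hsp90b1 at 0.13.

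Of 648 values of member changes with single pups left out, 599 kept direction and side of the threshold, 7 lost a call and 42 changed sign; of 512 values under other alternatives, 448, 17 and 47. All changes of sign were in comparisons in which the gene had no call in the main fit. With array weights, Hspa5 and Xbp1 in sons were at 0.0093 and -0.0012 and Dnajb9 in daughters at -0.013. Within G073, Hspa5 and Xbp1 in sons were at 0.021 and -0.034 and Herpud1 in daughters at -0.0011. Within G074, Hsp90b1, Herpud1 and Creld2 in sons were at -0.0052, -0.23 and -0.11, Atf4 and Dnajb9 in daughters at 0.087 and -0.015, and the differences of Atf4 and Herpud1 at -0.049 and -0.31. With centred arrays, Hsp90b1 and Creld2 in sons were at -0.0024 and -0.0047 and Dnajb9 in daughters at -0.017, and with repeated quantile normalization Dnajb9 in daughters was at -0.020. Without number 37, Hspa5 and Xbp1 in sons were at 0.065 and -0.027, Atf4 and Dnajb9 in daughters at 0.013 and -0.051, and the differences of Atf4 and Dnajb9 at -0.0027 and 0.018. Without number 39 the difference of Herpud1 was -0.059. Without number 40, Atf4, Herpud1 and Creld2 in sons were at -0.0056, -0.042 and -0.048, and Herpud1 and Dnajb9 in daughters at -0.10 and -0.017. Without number 48, Hsp90b1 and Xbp1 in sons were at -0.024 and -0.090, Dnajb9 in daughters at -0.023 and the difference of Xbp1 at -0.037. Without number 49, Creld2 in sons was at -0.036 and Herpud1 in daughters at -0.026. Without number 50, Hsp90b1, Xbp1, Herpud1 and Creld2 in sons were at -0.036, -0.019, -0.066 and -0.058, and the difference of Herpud1 at -0.067. Without m-LF6 and m-WS1, Hsp90b1, Xbp1 and Creld2 in sons were at -0.0092, -0.0085 and -0.067, and the difference of Herpud1 at -0.025. Averaging pups of 1 number put Xbp1 in sons at -0.0092, and the prefix block put Dnajb9 in daughters at -0.0014 and the difference of Herpud1 at -0.012. With single pups left out, sons gave -0.051 to 0.033 for Hspa5, -0.015 to 0.062 for Hsp90b1, -0.044 to 0.075 for Xbp1, -0.034 to 0.12 for Herpud1 and -0.042 to 0.064 for Creld2. Daughters gave -0.028 to 0.065 for Herpud1 and -0.033 to 0.033 for Dnajb9, and the differences -0.0066 to 0.11 for Xbp1 and -0.062 to 0.095 for Herpud1.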
